A study of Mus musculus with 3 samples.

Results

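This account covers the mouse genes for splicing regulators of the SR, TRA2, hnRNP, CLK and RBM families on arrays of cultured spleen cells. A gene belonged to the set if its symbol was Srsf followed by a number, began with Hnrnp, or was Clk1 to Clk4, Tra2a, Tra2b, Rbm3, Rbm5, Rbm10, Rbm25 or Rbm39. This gave 43 of the 36609 genes on the array, made up of 11 SR protein genes, 2 TRA2 genes, 4 CLK genes, 5 RBM genes and 21 hnRNP genes. They were read by 117 probes, 34 genes having several and 9 having 1. The 3 conditions had 1 array each. Splenocytes from 6-month-old MRL/MpJ males were cultured for 3 h in contact with MRL/MpJ urine, with the urine of the strain MRL/MpJ-Faslpr/lpr (called lpr urine from here on), or with phosphate-buffered saline (PBS). The lpr strain lacks functional Fas, a death receptor, and develops a lupus-like autoimmune disease. The cells on all 3 arrays came from MRL/MpJ mice, so only the urine donors differed at Fas. Urine of 6 male donors aged 6 months was pooled for each strain, spun and passed through a 0.22 µm filter, and neither the number of spleens nor other wells are given in the labels.

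SR proteins bind exonic sequences through RNA recognition motifs and recruit the spliceosome through a domain rich in arginine and serine. Many hnRNPs bind pre-mRNA and repress nearby splice sites, while CLK kinases phosphorylate SR proteins and so control where they sit in the nucleus and how they act. Many of these genes also regulate their own transcripts, by including an exon that carries a premature stop codon or by keeping an intron, and such transcripts are often degraded or held in the nucleus. Probes at different places in a gene can therefore read different transcripts. This is background from the field and was not measured here.

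The arrays carry 60-base probes, and their sequences show which piece of a transcript each signal reads. Those below belong to genes whose probes gave unlike readings, and the Srsf3 probe also resembles an Srsf5 probe. Capitals mark the 11-base run that the Srsf3 probe shares with the junction probe of Srsf5, the longest run they have in common. The sequences are those in the deposited files, 5′ to 3′, with positions on mouse build mm9. A probe whose genomic span exceeds 60 bases crosses a splice junction, and a contiguous probe does not.

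Srsf5 junction probe (chr12:82047706-82048355, plus strand): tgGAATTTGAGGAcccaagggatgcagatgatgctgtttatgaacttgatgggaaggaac
Srsf5 contiguous probe within that span (chr12:82047730-82047789, plus strand): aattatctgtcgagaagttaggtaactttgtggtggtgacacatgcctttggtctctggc
Srsf5 downstream probe (chr12:82050878-82050937, plus strand): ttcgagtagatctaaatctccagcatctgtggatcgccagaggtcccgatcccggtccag
Srsf3 upstream probe (chr17:29173333-29173392, plus strand): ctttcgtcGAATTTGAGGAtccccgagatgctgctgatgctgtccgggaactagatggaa
Clk1 upstream probe (chr1:58473928-58473987, minus strand): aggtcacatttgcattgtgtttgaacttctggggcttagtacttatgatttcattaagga
Clk1 junction probe (chr1:58469863-58470285, minus strand): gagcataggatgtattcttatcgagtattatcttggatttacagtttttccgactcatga
Rbm25 junction probe (chr12:85001574-85004933, plus strand): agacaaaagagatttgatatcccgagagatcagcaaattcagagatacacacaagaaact
Rbm25 contiguous probe within that span (chr12:85004715-85004774, plus strand): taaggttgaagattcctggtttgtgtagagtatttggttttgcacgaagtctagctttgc
Srsf11 junction probe (chr3:157680826-157682305, minus strand): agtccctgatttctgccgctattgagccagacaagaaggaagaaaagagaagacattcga
Srsf11 contiguous probe upstream of it (chr3:157687750-157687809, minus strand): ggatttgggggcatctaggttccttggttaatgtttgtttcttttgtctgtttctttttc

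Signals are given as deposited, in intensity units. Differences are log2 processed signals after each array's 75th percentile was set to a common level, urine minus PBS unless said otherwise, so a value of 1 is a 2-fold higher and -1 a 2-fold lower scaled signal. Paired signals or differences of a probe are those of the MRL/MpJ urine array and the lpr urine array, in that order. The 75th percentile was 86.6 with MRL/MpJ urine, 75.7 with lpr urine and 157.5 with PBS. A probe or gene is called measured where the scanning software marked its spot as well above background, and the number of genes measured was 20803, 20468 and 21298 on these arrays in the same order. Repeated spots of the same probe within an array would give a log2 difference an SD of 0.052 at log2 signals over 8 and of 0.372 below 5. That SD leaves out any spread between wells or arrays, so with 1 array per condition no difference has a replicate check. All 43 genes were measured on every array, each from 1 unsaturated spot.

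The choice of scale matters for every direction given here. The 8 spike-in probes, which read synthetic transcripts added in fixed amounts, would place every gene 0.90 lower with MRL/MpJ urine and 0.99 lower with lpr urine against PBS than the 75th percentile does. Before any scaling, 36 of the 43 genes had a lower signal with MRL/MpJ urine than with PBS, as did 79.7% of all measured genes, and 37 had a lower signal with lpr urine, as did 82.9% of all. Directions are therefore relative to the bulk of the genes on each array, whose own median difference was 0.13 after MRL/MpJ urine and 0.15 after lpr urine. The same 0.05 µg of RNA was labelled for each array, so the signals do not measure the total RNA of a well or a cell. For a given gene, fewer cells of a type and less of its RNA per cell cannot be told apart in such bulk cultures.

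Cell type markers shifted between the arrays as well. All 6 B cell, 6 T cell, 4 NK cell, 6 monocyte and macrophage and 5 neutrophil markers were measured, with 4 of 5 erythroid markers and 1 of 5 urinary tract epithelium markers. The summed signals of B cell markers were 27560 with MRL/MpJ urine, 22898 with lpr urine and 31372 with PBS, and those of T cell markers were 20707, 19076 and 40856 in that order. After scaling, the median marker difference with MRL/MpJ urine was 0.96 for B cells, -0.06 for T cells, 0.50 for NK cells, 0.82 for monocytes and macrophages, 0.73 for neutrophils and 0.50 for erythroid cells. With lpr urine these medians were 0.92, 0.04, 0.49, 0.72, 0.84 and 0.70. Upk1a, the epithelial marker that was measured, had 9.52 units with MRL/MpJ urine, 8.77 with lpr urine and 26.0 with PBS, and all 5 epithelial markers summed to 14.0, 13.1 and 31.0 in that order. The part of these shifts in the differences below was not tested.

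The comparison of MRL/MpJ urine with PBS asks how the regulators stood after contact with urine of the cells' own strain. Read from its chosen probe, 7 of the 43 genes showed a 2-fold or greater excess on the MRL/MpJ urine array, which is 16.3% against 16.9% of the 19639 genes measured on both arrays. The genes at least 2-fold lower numbered 2 of 43, or 4.65%, against 11.1% of all genes. The median difference of the set was -0.09, with a range of -2.08 to 2.74. The share that was higher thus lay near that of all genes, with 18 genes of the set above 0 and 25 below. For this set, as for all genes, ties went to the probe brightest on average over the 3 arrays, urine included. Some 2-fold calls depend on that choice. With PBS alone another probe was brighter for Clk1 (2913 against 2378 units), Srsf3 (1821, 1357), Rbm39 (5951, 4711) and Hnrnpa1 (2747, 1629). Those other probes stood at 0.02, -0.43, -0.11 and -0.31 with MRL/MpJ urine. The low Hnrnpu probe was the brightest of its gene only with PBS.

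The comparison of lpr urine with PBS gave the same counts, 7 genes at least 2-fold higher and 2 at least 2-fold lower, against 18.5% and 12% of the 19370 genes measured on that pair. The median was -0.12 and the range ran from -1.74 to 2.71. Both comparisons use the same PBS array, so their likeness is not a second observation.

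**Figure D1:**
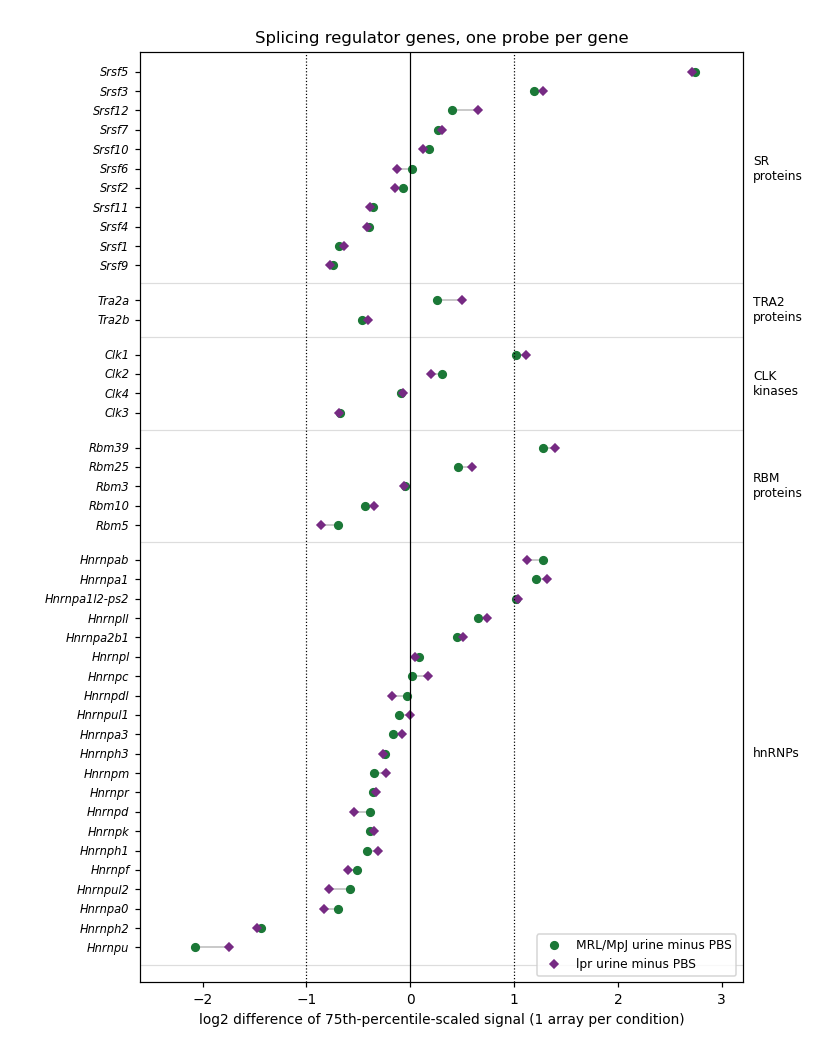
The 43 genes are grouped by family, and each is plotted by its log2 difference from PBS after 75th percentile scaling, with MRL/MpJ urine as circles and lpr urine as diamonds. Dotted lines mark 2-fold. Srsf5 lies farthest to the right at 2.74 and 2.71, and Hnrnpu farthest to the left at -2.08 and -1.74.

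Among the 11 SR protein genes, 2 were at least 2-fold higher with either urine and none was at least 2-fold lower. The family median was 0.01 after MRL/MpJ urine and -0.12 after lpr urine. Srsf5, an SR protein also known as SRp40, had 12413 intensity units after MRL/MpJ urine and 10603 after lpr urine, against 3367 with PBS. After scaling the signal was 6.70 times that of PBS with MRL/MpJ urine and 6.55 times with lpr urine, on the contiguous probe named for an Ensembl transcript. It was the only chosen probe of the set above 2 on the log2 scale in either comparison.

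Srsf3, the smallest of the SR proteins and a regulator of splicing and mRNA export, had 1701 units after MRL/MpJ urine and 1582 after lpr urine, against 1357 with PBS, a scaled difference of 1.19 and 1.28. Both urine arrays were above PBS even before scaling. Srsf7, its closest relative among the SR proteins and a regulator of export and polyadenylation, had 2640 and 2370 units with the 2 urines in the same order, against 3993 with PBS, or 0.27 and 0.30. Its unscaled signal was therefore lowest with lpr urine and highest with PBS, and its scaled difference stayed within 2-fold.

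The SR genes below the bulk of the array were led by Srsf9, an SR protein with a short arginine-serine domain. Srsf9 had 499.9 units after MRL/MpJ urine and 428.3 after lpr urine, against 1523 with PBS, or -0.74 and -0.77. Srsf1, the founding family member and a factor in splice site choice, had 385.8 and 350.0 units against 1131 with PBS, or -0.69 and -0.63. Both stood within 2-fold after scaling. Srsf4, also known as SRp75, had 379.0 and 327.1 units against 906.5 with PBS, or -0.40 and -0.41.

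The remaining SR genes lay closer to 0. Srsf11, a protein that binds other splicing factors through its arginine-serine domain, had 1421 units after MRL/MpJ urine and 1214 after lpr urine, against 3305 with PBS, or -0.35 and -0.39. Srsf2, also known as SC35, had 1731 and 1432 units against 3297 with PBS, or -0.07 and -0.15. Srsf6, also known as SRp55, had 1947 and 1548 units against 3509 with PBS, or 0.01 and -0.12. These differences were small beside the 2-fold line. Srsf10, which represses splicing when dephosphorylated, had 302.5 and 254.1 units against 485.1 with PBS, or 0.18 and 0.12. Srsf12, a relative of Srsf10, was dim, with 20.6 and 21.4 units against 28.4 with PBS, or 0.40 and 0.65.

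The TRA2 proteins are SR-like activators that bind exonic enhancers. Tra2a had 2779 units after MRL/MpJ urine and 2872 after lpr urine, against 4237 with PBS, or 0.25 and 0.50. Tra2b had 1872 and 1704 units against 4701 with PBS, or -0.47 and -0.41. The TRA2 genes thus stood on opposite sides of 0 on their chosen probes, neither beyond 2-fold.

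Of the 4 CLK genes, Clk1 was past 2-fold. Clk1 had 2647 units after MRL/MpJ urine and 2469 after lpr urine, against 2378 with PBS, a scaled difference of 1.02 and 1.11. Clk2 had 1819 and 1476 units against 2676 with PBS, or 0.31 and 0.20. Clk4, the closest relative of Clk1, had 740.6 and 657.0 units against 1436 with PBS, or -0.09 and -0.07. Clk1 was the sole CLK gene whose unscaled signal was higher with both urines than with PBS. Clk3 had 1692 and 1470 units against 4905 with PBS, or -0.67 and -0.68.

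Of the 5 RBM genes, Rbm39 was past 2-fold. Rbm39, a coactivator and splicing factor that resembles U2AF, had 6291 units after MRL/MpJ urine and 5948 after lpr urine, against 4711 with PBS, or 1.28 and 1.39. Rbm25, which binds exonic RNA and acts with the U1 particle, had 3152 and 3028 units against 4167 with PBS, or 0.46 and 0.60. Rbm3, a protein induced by cold, had 2705 and 2342 units against 5086 with PBS, or -0.05 and -0.06. Rbm3 thus moved with the 75th percentile of its arrays. Rbm10 had 891.9 and 826.5 units against 2188 with PBS, or -0.43 and -0.35. Rbm5, a regulator of apoptosis gene splicing like Rbm10, had 2344 and 1820 units against 6881 with PBS, or -0.69 and -0.86.

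The 21 hnRNP genes had 3 members at least 2-fold higher and 2 at least 2-fold lower with either urine. Their median was -0.25 with MRL/MpJ urine, where 14 lay below 0, and -0.23 with lpr urine, where 13 did. Hnrnpab, which encodes a protein of the CBF-A type that binds single-stranded nucleic acid, had 4809 units after MRL/MpJ urine and 3760 after lpr urine, against 3598 with PBS, or 1.28 and 1.12. Hnrnpa1, a splicing repressor that competes with Srsf1, had 2078 and 1951 units against 1629 with PBS, or 1.21 and 1.32, on a probe named for a non-coding transcript. Hnrnpa1l2-ps2 had 1216 and 1079 units against 1091 with PBS, or 1.02 and 1.04. The files annotate this last probe also to Hnrnpa1 transcripts, so the reading of that near-identical copy is uncertain. The count of 3 higher hnRNP genes, and that of 7 in the whole set, may therefore include another reading of Hnrnpa1. Hnrnpab and Hnrnpa1l2-ps2 had 1 probe each.

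The lower hnRNP genes were Hnrnpu and Hnrnph2. Hnrnpu, which encodes a scaffold protein of nuclear chromatin, had 543.4 units after MRL/MpJ urine and 599.8 after lpr urine, against 4170 with PBS, or -2.08 and -1.74, again on a probe named for a non-coding transcript. Hnrnph2, a factor that binds G-rich RNA, had 512.3 and 436.5 units against 2530 with PBS, or -1.44 and -1.48. Both of its probes were lower, the other at -0.83 and -0.92. The remaining 16 hnRNP genes lay between -0.70 (Hnrnpa0) and 0.66 (Hnrnpll) with MRL/MpJ urine and between -0.83 and 0.73, for the same genes, with lpr urine.

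The comparison of lpr urine with MRL/MpJ urine asks whether the strain of the urine donor mattered. None of the 43 genes was 2-fold apart between these arrays in either direction, where 0.34% of the 20014 genes measured on both were at least 2-fold higher with lpr urine and 0.06% at least 2-fold lower. The median of the set was 0.02 and the range ran from -0.21 to 0.34. Hnrnpu at 0.34 and Srsf12 at 0.25 were the highest, and Hnrnpul2 at -0.21 was the lowest. With 1 array of each urine, differences of this size could not be set against a spread between wells.

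The probes of many of these genes disagreed with each other against PBS. A total of 32 genes had several probes measured on both arrays of a pair. In 15 of them, or 46.9%, the highest and lowest probe differed by at least 1 on the log2 scale with MRL/MpJ urine, against 31.2% of the 6720 genes of the array with several measured probes. With lpr urine 15 of 32 did so too, against 32.8% of 6595 genes, and 14 genes did so with both urines. Genes with more probes have wider gaps, and weighting all genes to the probe numbers of this set gave 40.4% after MRL/MpJ urine and 42.3% after lpr urine. The excess of the set over all genes was thus smaller once the number of probes was matched. A gap between probes of a gene does not depend on how the arrays are scaled, as long as all probes of an array are scaled by the same factor.

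Probes on opposite sides of 0 were found in 18 of the 32 genes with either urine, or 56.2%, against 33.7% of genes after MRL/MpJ urine and 34.2% after lpr urine. Those signs do depend on the scale. No gene of the set had 1 probe at least 2-fold higher and another at least 2-fold lower, against 2.2% of genes after MRL/MpJ urine and 2.49% after lpr urine. The median gap was 0.98 after MRL/MpJ urine and 0.99 after lpr urine, beside 0.56 and 0.59 over all genes. The shares and median gaps over all genes in this paragraph were not weighted to the probe numbers of the set. How much probe number adds to these excesses was not tested. Between the urines no gene of 33 had a gap of 1 or more, against 1.2% of 6755 genes, and 16 of 33 had probes on opposite sides of 0, against 52.0% of genes. The widest gap between the urines was 0.72 for Hnrnpr.

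**Figure D2:**
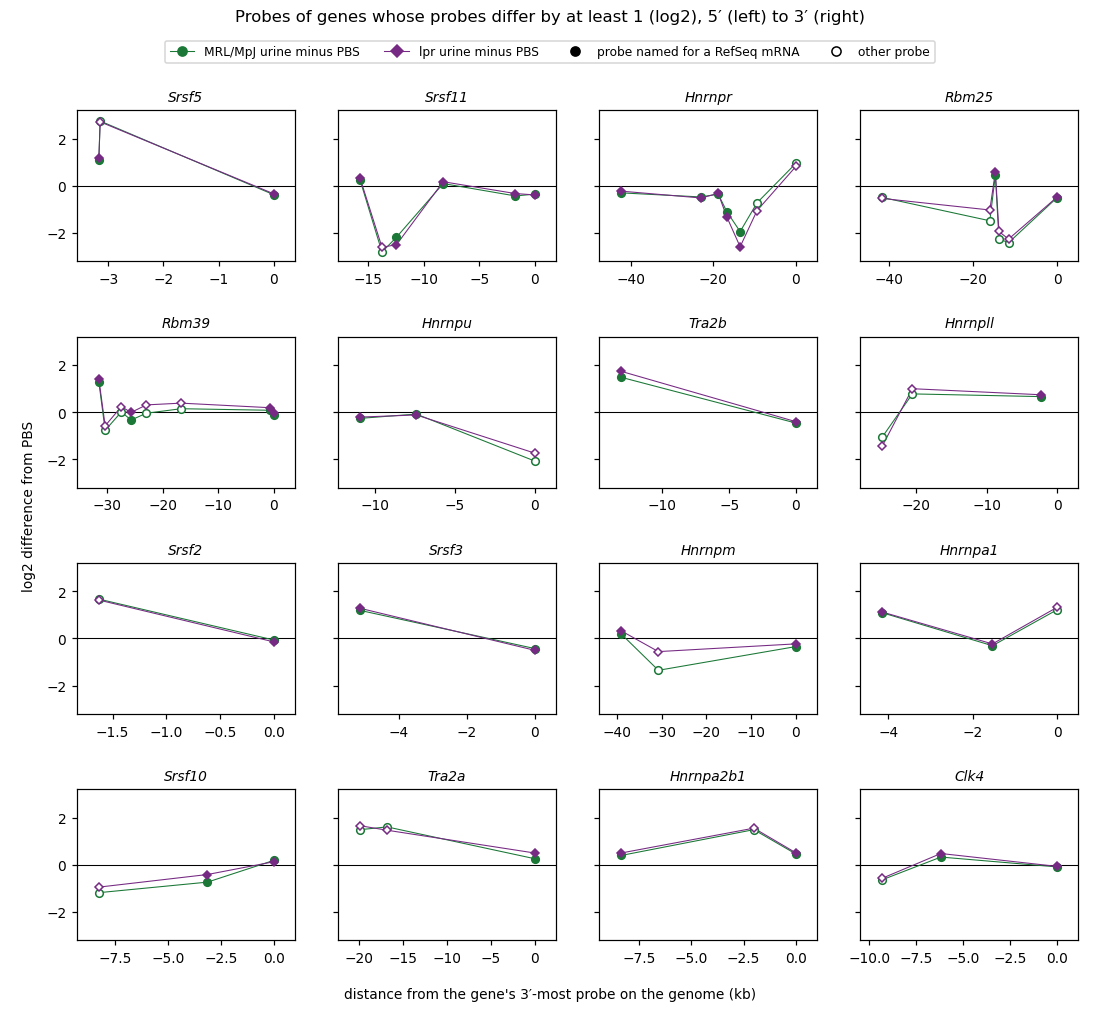
Each panel shows the measured probes of a gene whose probes differ by at least 1 with either urine, 16 genes in all, ordered by the gap with MRL/MpJ urine. The horizontal axis is the distance in kb from the 3′-most probe, the vertical axis the log2 difference from PBS, circles are MRL/MpJ urine, diamonds lpr urine, and open symbols are probes not named for a RefSeq mRNA. In Srsf5 the highest probe stands at 2.74 and the 3′-most at -0.38. In Srsf11 and Rbm25 some probes inside the gene lie below -2 and others within 2-fold.

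In Srsf5 the 3 probes gave 3 different readings. The junction probe had 1725 units after MRL/MpJ urine and 1600 after lpr urine, against 1472 with PBS, or 1.09 and 1.18. The contiguous probe begins 24 bases inside the span of the junction probe and shares with it no run longer than 5 bases, so all but at most 5 bases of its target lie in sequence that the spliced target leaves out. That contiguous probe is the one at 2.74 and 2.71, which is 1.65 and 1.53 above the junction probe. The downstream probe had 1041 units after MRL/MpJ urine and 933.8 after lpr urine, against 2458 with PBS, or -0.38 and -0.34. Srsf5 thus read as strongly higher, 2-fold higher or slightly lower, depending on the place in the gene.

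Rbm25 had the same arrangement with the opposite order. Its junction probe stood at 0.46 and 0.60, as given above. Both contiguous probes inside that span were lower, and neither shares a run longer than 6 bases with the junction probe. The 1 printed above had 281.0 units after MRL/MpJ urine and 272.7 after lpr urine, against 2723 with PBS, or -2.41 and -2.26. The other, 849 bases from the start of the span, had 25.2 and 27.4 units against 218.4 with PBS, or -2.25 and -1.94. Both were clearly brighter on the PBS array than on either urine array. The remaining Ensembl-named probe of Rbm25 stood at -1.48 and -1.03, and the first and last probes of the gene between -0.48 and -0.54.

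Rbm39, with 8 probes, had its high reading on the junction probe alone. The Ensembl-named probe inside that span had 345.9 units after MRL/MpJ urine and 345.2 after lpr urine, against 1075 with PBS, or -0.77 and -0.58, a gap of 2.05 and 1.98 to the junction probe. The other 6 probes lay between -0.34 and 0.14 with MRL/MpJ urine and between -0.05 and 0.38 with lpr urine. The 2-fold call of Rbm39 therefore rests on 1 of 8 probes. Across all genes of the array 68 such pairs of an inner and a junction probe were measured, in 66 genes, and the inner probe was at least 1 lower in 17 and at least 1 higher in 13 of them with either urine. The 4 pairs of this set, from 3 genes, all had gaps beyond 1.

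**Figure D3:**
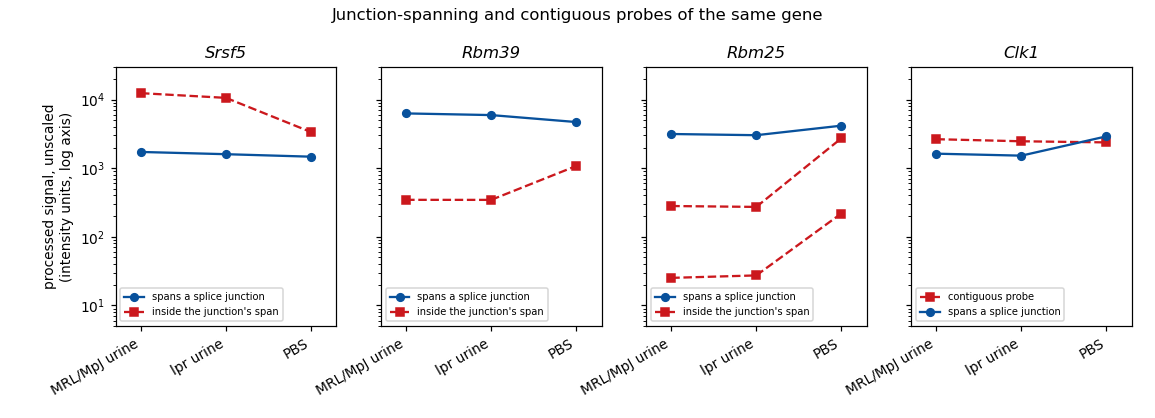
Unscaled processed signals on a log axis are shown for the arrays with MRL/MpJ urine, lpr urine and PBS, with junction probes as solid blue lines and contiguous probes as dashed red lines. In Srsf5 the inner probe is higher with the urines (12413 and 10603) than with PBS (3367), whereas in Rbm39 and Rbm25 the inner probes are lower with the urines.

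The gap of Clk1 lay just short of 1. Its junction probe, nearer the 3′ end, had 1628 units after MRL/MpJ urine and 1524 after lpr urine, against 2913 with PBS, or 0.02 and 0.12. The upstream probe, at 1.02 and 1.11, stood 0.99 above it with both urines. Clk4 had probes at -0.64, 0.32 and -0.09 with MRL/MpJ urine and at -0.57, 0.48 and -0.07 with lpr urine, in 5′ to 3′ order. The first of these was dim, with 21.0 units after MRL/MpJ urine and 19.2 after lpr urine, against 59.4 with PBS. The 3 Clk2 probes lay between -0.05 and 0.31 in both comparisons, and Clk3 had 1 probe.

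Several SR and TRA2 genes were higher at an upstream probe than at the 3′-most one. The Srsf3 upstream probe stood at 1.19 and 1.28, whereas the downstream probe had 742.8 units after MRL/MpJ urine and 616.6 after lpr urine, against 1821 with PBS, or -0.43 and -0.50. The upstream Srsf2 probe, named for an Ensembl transcript, had 135.8 and 115.5 units against 77.8 with PBS, or 1.67 and 1.63, beside -0.07 and -0.15 on the mRNA probe. The upstream Tra2b probe had 2311 and 2407 units against 1511 with PBS, or 1.48 and 1.73, beside -0.47 and -0.41 downstream. In these genes the upstream probes were brighter with either urine than with PBS even before scaling, and the downstream probes were dimmer.

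Tra2a followed the same order. Its Ensembl-named probes had 777.4 and 763.9 units against 504.6 with PBS, and 1303 and 1033 against 779.6, which gave 1.49 and 1.60 with MRL/MpJ urine and 1.66 and 1.46 with lpr urine, beside 0.25 and 0.50 on the mRNA probe. For Srsf12 the upstream probe had 18.7 units after MRL/MpJ urine and 15.04 after lpr urine and was not well above background with PBS. Set against the dimmest signal that was well above background there, its excess was at least 7.62-fold for MRL/MpJ urine and at least 7.00-fold for lpr urine. At such low signals the spread of repeated spots is widest. A Tra2b probe on the opposite strand was well above background on the lpr urine array alone, at 5.83 units, where the dimmest such signal was 4.43. It had 3.73 units with MRL/MpJ urine and 1.05 with PBS. Set against the dimmest such PBS signal, 4.47, its excess with lpr urine was 2.71-fold. That dimmest signal is from the whole PBS array, for Srsf12 as well, and is not the limit of the spot itself.

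Over the whole set this order was not general. In 29 genes with measured probes at different places, the 5′-most probe was above the 3′-most in 18 with MRL/MpJ urine and in 17 with lpr urine, and the median of first minus last was 0.16 and 0.33. Over the 5478 genes of the array that could be compared with MRL/MpJ urine the first was above the last in 56.0%, with a median of 0.09. With lpr urine these were 57.9% of 5352 genes and 0.13. The first probe was at least 1 above the last in 7 genes of the set and at least 1 below it in 3, of 29, with either urine. Over all genes these shares were 13.6% above and 12.7% below with MRL/MpJ urine, and 15.2% and 12.5% with lpr urine.

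In Srsf11 neighbouring probes inside the gene were low, and the 4 others, some of them also inside the gene, were not. The contiguous probe printed above had 83.6 units after MRL/MpJ urine and 84.3 after lpr urine, against 1069 with PBS, or -2.81 and -2.61. Its downstream neighbour, named for a RefSeq mRNA, had 9.79 and 6.86 units against 80.8 with PBS, or -2.18 and -2.50. The junction probe of Srsf11 had 1427 and 1317 units against 2433 with PBS, or 0.09 and 0.17. The first probe of the gene stood at 0.26 and 0.33, and the last 2 between -0.33 and -0.43. The low readings of Srsf11 were thus from dim to moderate signals at neighbouring probes, with 4 other probes within 2-fold. Srsf10 had its lowest reading at the 5′ end, with 176.0 and 181.0 units against 727.8 with PBS on an Ensembl-named probe, or -1.19 and -0.95. Its middle probe, named for a RefSeq mRNA, was also below 0, at -0.74 and -0.42. That probe was dim, with 27.8 and 30.4 units against 84.3 with PBS.

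Among the hnRNP genes Hnrnpr had the widest gap. Its 7 probes ran from -1.94 to 0.95 with MRL/MpJ urine and from -2.59 to 0.82 with lpr urine. The lowest, a RefSeq mRNA probe, had 14.1 units after MRL/MpJ urine and 7.92 after lpr urine, against 99.0 with PBS, and the highest, the 3′-most, had 265.3 and 211.3 against 249.2. The first 3 Hnrnpr probes lay between -0.23 and -0.52. For Hnrnpu the RefSeq mRNA probes stood at -0.27 and -0.08 with MRL/MpJ urine and at -0.21 and -0.12 with lpr urine, so its 2-fold call rests on the non-coding probe alone.

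Hnrnpa1 likewise split by probe. Its upstream mRNA probe had 394.4 units after MRL/MpJ urine and 352.0 after lpr urine, against 337.2 with PBS, or 1.09 and 1.12. Its middle mRNA probe had 1219 and 1123 units against 2747 with PBS, or -0.31 and -0.23. The 2 outer probes of Hnrnpa1 were therefore higher and the middle one was not. Hnrnpa2b1, a relative that also binds RNA for transport, had 1574 and 1437 units against 1020 with PBS on an Ensembl-named probe, or 1.49 and 1.55, beside 0.39 to 0.50 on its mRNA probes. Hnrnpll, a regulator of Cd45 splicing in lymphocytes, had its first probe at -1.06 and -1.44, and the next 2 between 0.66 and 0.99. That first probe had 17.2 units after MRL/MpJ urine and 11.5 after lpr urine, against 65.1 with PBS. The second Hnrnpll probe had 29.8 and 30.3 units against 31.7 with PBS, so both were dim. Hnrnpm had its Ensembl-named probe at -1.35 after MRL/MpJ urine and -0.56 after lpr urine, on 12.6 and 19.1 units against 58.6 with PBS, and its mRNA probes between -0.35 and 0.32.

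Other genes had probes on opposite sides of 0 with narrower gaps. With both urines this held for Hnrnpf, where the upstream probe was at 0.26 and the downstream probe at -0.52 and -0.60, and for Rbm3, whose 4 probes lay between -0.06 and 0.85. Hnrnpl, Hnrnpul2 and Clk2 had opposite signs with MRL/MpJ urine, with gaps of 0.33, 0.70 and 0.36. Hnrnpa3, Hnrnpul1 and Srsf6 had them with lpr urine, with gaps of 0.16, 0.41 and 0.27. On their chosen probes the signals of these genes with MRL/MpJ urine, lpr urine and PBS were 3024, 2503 and 7870 for Hnrnpf, 1420, 1212 and 2442 for Hnrnpl, and 208.2, 157.5 and 565.1 for Hnrnpul2. In the same order they were 7405, 6867 and 15140 for Hnrnpa3 and 418.6, 395.0 and 821.6 for Hnrnpul1. All of these chosen probes were brightest with PBS before scaling.

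The kind of transcript a probe was named for went with the spread of the readings. With MRL/MpJ urine 84 member probes named for a RefSeq mRNA had a median of -0.09, with 8 at least 2-fold higher and 4 at least 2-fold lower. The 25 probes named for an Ensembl transcript had a median of -0.45, with 5 at least 2-fold higher and 8 at least 2-fold lower. Several of these 25 probes belong to the same gene. Among all probes of genes that have a RefSeq mRNA probe, 12.1% of mRNA probes were at least 2-fold higher and 11.8% at least 2-fold lower, and for Ensembl-named probes these shares were 19.0% and 22.3%. The median over the array was -0.04 for either kind, so the low median of the set's Ensembl-named probes was not seen there. The 13 junction probes of the set had a median of 0.09 after MRL/MpJ urine and 0.12 after lpr urine, beside -0.17 and -0.16 for the 100 others. The wider spread of Ensembl-named probes was thus seen over the array at large.

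**Figure D4:**
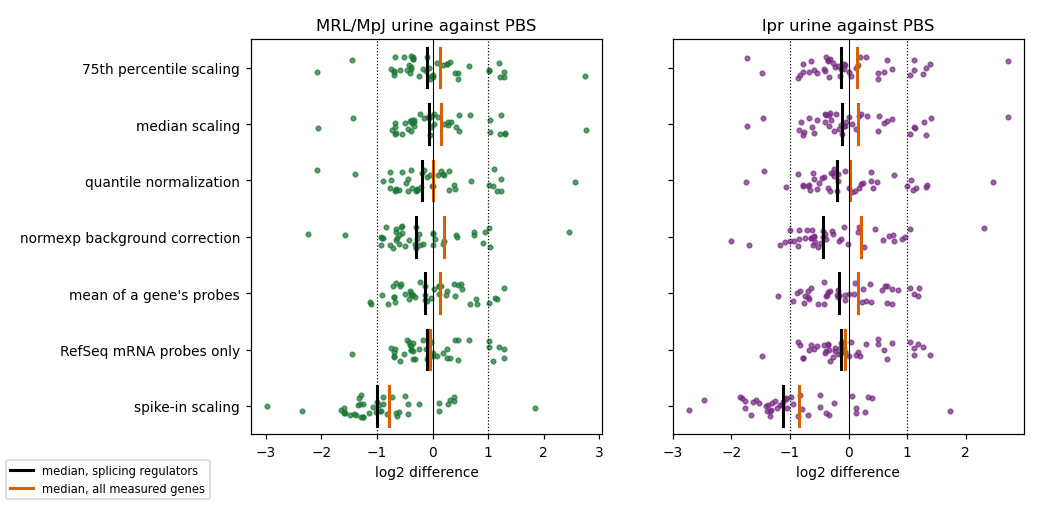
Points are the set's genes by their log2 difference from PBS under 7 ways of processing the signals, with the left panel for MRL/MpJ urine and the right for lpr urine. Black bars are the set's median and orange bars the median of all measured genes, which stand at -0.996 and -0.777 with MRL/MpJ urine under spike-in scaling and at -0.09 and 0.13 under 75th percentile scaling.

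Other parts of the splicing machinery were described beside the set by the same values, and their 2-fold counts stand beside the same shares of all genes, 16.9% higher and 11.1% lower with MRL/MpJ urine and 18.5% and 12% with lpr urine. Of 30 core spliceosome genes, none was at least 2-fold higher and 2 at least 2-fold lower with MRL/MpJ urine, and 1 and 4 were with lpr urine. The median of these 30 was -0.42 and -0.44, and 26 of them lay below 0 in each comparison, where 8783 of 19639 and 8602 of 19370 genes of the array did. Snrpd1, an Sm protein of the small nuclear particles, had 711.2 units after MRL/MpJ urine and 626.5 after lpr urine, against 4260 with PBS, or -1.72 and -1.71, while another of its probes stood at 2.04 and 2.81. Sf3b3 was at -1.17 and -1.20, Prpf31 at -0.95 and -0.96, and Prpf4 at -0.94 and -1.09. Sf3b1, the branch site factor of the U2 particle, was the highest of this list at 0.99 and 1.14. Snrpg followed at 0.41 and 0.46, and Snrpe at 0.10 and 0.13.

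Of 8 kinases outside the CLK family that phosphorylate SR proteins, 1 was at least 2-fold higher and 1 at least 2-fold lower with either urine. Srpk3, a kinase of the SRPK family known from muscle, had 980.7 units after MRL/MpJ urine and 843.0 after lpr urine, against 220.0 with PBS, or 3.02 and 2.99. Dyrk3 had 9.32 and 6.59 units against 39.4 with PBS, or -1.22 and -1.52. The difference of Srpk3 from PBS was thus above that of any chosen probe of the set. Dyrk1b was at -0.96 and -0.89, Srpk1 at -0.54 and -0.47, Srpk2 at -0.42 and -0.48, Dyrk2 at -0.36 and -0.20, and Dyrk1a at 0.23 and 0.12. Another Srpk2 probe stood at 0.98 and 1.10, on the other side of 0 and past 2-fold with lpr urine.

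Of 22 SR-related coactivators, 2 were at least 2-fold higher with either urine, and 0 after MRL/MpJ urine and 1 after lpr urine at least 2-fold lower. Their median was -0.30 in each comparison. Rsrc2, an arginine- and serine-rich protein, had 2892 units after MRL/MpJ urine and 2796 after lpr urine, against 1260 with PBS, or 2.06 and 2.21. Its probes ran from 0.61 to 3.38 with MRL/MpJ urine, all above 0. Scaf4 was at 1.02 and 1.04 on its chosen probe, and at -2.75 and -2.69 on another. Bclaf1 was at -0.97 and -1.19, Cwc22 at -0.94 and -0.93, Rnps1 at -0.70 with both, Srrm1 at -0.69 and -0.80, Son at 0.46 and 0.66, and Srrm2 at 0.37 and 0.70. Other probes reached 0.45 and 0.50 for Bclaf1, and 3.25 and 2.69 for Cwc22.

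Of 32 other alternative splicing factors measured, 2 were at least 2-fold higher and 2 at least 2-fold lower with MRL/MpJ urine, and 2 and 4 were with lpr urine. The medians were -0.11 and -0.10. Sfpq, a nuclear protein of paraspeckles that also acts in splicing, had 10975 units after MRL/MpJ urine and 9886 after lpr urine, against 4985 with PBS, or 2.001 and 2.04. Its partner Pspc1 was at 1.20 and 1.45. Sfpq probes ran from 0.25 to 4.85 with MRL/MpJ urine and from 0.33 to 5.15 with lpr urine. Ptbp2 was the lowest at -1.92 and -2.04, followed by Cirbp, another cold-induced protein, at -1.09 and -1.12. Tia1 was at 0.90 and 0.71. Other probes stood at 0.39 and 0.14 for Cirbp, at -0.20 and -0.12 for Pspc1, and as low as -0.94 and -0.99 for Tia1.

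Of 14 measured genes of nonsense-mediated decay and the exon junction complex, the pathway that removes transcripts with premature stops, none was at least 2-fold higher and 2 were at least 2-fold lower with either urine. Casc3, a core component of the exon junction complex, had 711.0 units after MRL/MpJ urine and 602.8 after lpr urine, against 3442 with PBS, or -1.41 and -1.46. Eif4a3, the helicase that clamps the complex on RNA, had 165.4 and 147.3 units against 665.6 with PBS, or -1.15 and -1.12. Rbm8a, also a core component, was at -0.70 and -0.79, and Magoh, its partner, at 0.53 and 0.74. The components of this complex thus stood on both sides of 0. Smg5 was at 0.69 and 0.58, and Upf3a at 0.55 and 0.53, with another Upf3a probe at -0.36 and -0.16.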

How the data were processed

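The arrays were single-colour (Cy3) Agilent arrays on 1 slide, and RNA was labelled from 0.05 µg per sample, per the labels' protocols. The submitters' processing notes and the file headers name Agilent Feature Extraction 12.0.3.1. The deposited signals are intensity values, per the file headers. The processed signal had background subtracted and spatial trends removed by the authors' software and was not normalised between arrays, and mean signal and local background are unprocessed. Controls and flagged spots were dropped, which left 56599 of 56605 probes, and repeated spots were averaged. The log2 values were computed here from the deposited processed signal, minus each array's 75th percentile. Each gene was read from the probe well above background on most arrays, ties going to the brightest by mean log2 signal over the 3 arrays. All 43 symbols were found in a RefSeq gene table, used for names only. No genome or annotation of build mm9 was used, so exon, intron and UTR status of probes is not given.

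With 1 array per condition no test was made, and the number of arrays limits the precision. The genes, the related lists and the markers were chosen with earlier results of these data known. Named genes were all Clk, Tra2, Rbm and Srsf genes, members past 2-fold with both urines, members whose probes differed by 1 or more or had opposite signs against PBS, and up to the 3 highest and 3 lowest of each related list per urine, a few further list members being named after their values were seen. A list member that this rule names is not reported here. Pairs of inner and junction probes and counts of unscaled signals were added after seeing the data. The steps were tested on simulated data with known changes. Python 3.11.15, pandas 2.3.3, R 4.3.3 and limma 3.58.1 (normexp with offset 50) were used. Alternatives were median, spike-in and quantile scaling, normexp background correction, the mean of a gene's probes, brighter genes only, no filter, and a 1.5-fold threshold. RefSeq mRNA probes only, and normexp and quantile values of the probe gaps, were chosen after seeing the data.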

Additional observations from a re-analysis of the deposited data

How the results depend on the processing

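No paired analysis was possible because there was 1 array per condition and no replicate number. Spike-in scaling changed the counts most: against PBS, 1 gene passed 2-fold upward and 21 downward on the MRL/MpJ urine array (median -0.996), and 1 and 25 on the lpr urine array (median -1.11), beside 40.8% and 44.0% of all genes lower, since it moves all genes by the same amount. Its median for lpr against MRL/MpJ urine was -0.064. Under normexp correction 3 genes were higher with MRL/MpJ urine (median -0.31), against 6.97% of all genes, and 2 higher and 5 lower with lpr urine (median -0.44), against 7.32% and 9.66%, and the median between the urines was -0.062. Quantile normalisation gave medians of -0.19 and -0.20 against PBS. Averaging the probes within genes, 4 genes were higher with either urine, where 16.7% (MRL/MpJ) and 18.2% (lpr) of all genes were. Lower genes numbered 2 after MRL/MpJ urine, against 10.7% of all genes, and 1 after lpr urine, against 11.4%. Rbm39 stood at 0.03 and 0.23 in this setting. At 1.5-fold 8 genes were higher and 7 lower with MRL/MpJ urine, against 31.2% and 22.5% of all genes, and 10 and 9 with lpr urine, against 33.4% and 22.9%. With RefSeq mRNA probes only, chosen after seeing the data, 6 of 43 genes were higher and 1 was lower with either urine. Of all genes 12.9% were higher and 12.6% lower with MRL/MpJ urine in this setting, and 13.8% and 13.8% with lpr urine. Hnrnpa1 turned to -0.31 and -0.23, Srsf5 stood at 1.09 and 1.18, and Hnrnpu at -0.08 and -0.12. The causes of the normexp and quantile shifts were not tested. Median scaling, brighter genes only (42 members) and no filter left 7 genes higher and 2 lower against PBS, but the shares of all genes moved: among brighter genes 13.6% were higher and 13.9% lower with MRL/MpJ urine, with a median of -0.08 beside -0.10 in the set, and with no filter 41.1% of all genes were higher with lpr urine. No setting gave a gene 2-fold apart between the urines. Probe gaps of at least 1 were found in 14 genes (43.8%) under normexp, against 29.3% and 33.5% of all genes weighted to the set's probe numbers, and in 19 (59.4%) under quantile normalisation, against 41.0% and 42.1%. The excess over all genes was thus wider under both than in the 15 genes with 75th percentile scaling. Signals below a log2 of 5 carry the widest spot error. With the urines this was so for both Srsf12 probes and the dimmest probes of Srsf11, Hnrnpr, Rbm25, Hnrnpm, Clk4, Srsf10 and Hnrnpul1. It was so as well for the first Hnrnpll probe and the next, and for the Tra2b probe on the opposite strand. The Rbm5 probes with 8.68 and 21.6 units after MRL/MpJ urine also lay below that level.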
